A study of Mus musculus with 12 samples.

Results

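The genes described here are 10 members of the MHC class II pathway, H2-Aa, H2-Ab1, H2-Eb1, Cd74, H2-Oa, H2-Ob, H2-DMa, H2-DMb1, H2-DMb2 and Ciita, followed through RNA-seq libraries of sorted CXCR5hi T cells. They were chosen by name as a pathway, and with measured values in view, since H2-Ob was already known to have a small unadjusted p in the comparison of genotypes. All 10 are among the 25793 gene entries of the count table and among the 25819 entries of the FPKM table (fragment counts scaled for transcript length and library depth).

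The sorted cells had been given to the mice as OT-II T cells, whose transgenic receptor recognises an ovalbumin peptide on MHC class II. They were GFP-transduced and came either from Pdcd1+/+ mice (WT) or from mice labelled Pdcd1KI/KI (KI), on the C57BL/6 strain. The labels do not say what the knock-in allele changes. Both groups were transferred into B6 recipients together with dsRed-expressing MD4 B cells, whose receptor recognises hen egg lysozyme, and recipients were immunised under the skin with HEL-OVA (treatment given as HEL-OVA/LPS/Alum). On day 5, CXCR5hi GFP+ CD4+ cells were sorted from lymph node, 100 to 200 cells per library, so every library comes from a mouse that also held host B cells, transferred B cells and the host's other antigen-presenting cells. Each genotype has 6 libraries, 3 with the first title number 1 and 3 with the first title number 2. The labels do not say what this number stands for, nor whether libraries came from separate mice, so p-values measure only the spread between these libraries, which may be technical.

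MHC class II molecules carry peptides from endocytosed antigen to the cell surface for recognition by CD4 T cells. H2-Aa and H2-Ab1 encode the alpha and beta chains of I-A, and H2-Eb1 encodes the beta chain of I-E, whose alpha chain is not made in C57BL/6 mice. Cd74 encodes the invariant chain, which chaperones new class II molecules and blocks their groove. H2-DMa with H2-DMb1 or H2-DMb2 forms H2-DM, which exchanges the remnant of that chain for peptide, and H2-Oa with H2-Ob forms H2-O, an inhibitor of H2-DM. Ciita is the transcriptional co-activator that turns the group on in B cells, dendritic cells and macrophages. In mice these are the cells known for class II, while mouse T cells are generally described as making little of it.

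In the mm9 annotation, 8 of the 10 genes lie within 0.224 Mb of chromosome 17, between 34229285 and 34453144, and Ciita lies on chromosome 16 between 10480237 and 10527657. Class II promoters share an X box, bound by RFX, and a Y box, bound by NF-Y. The stretch searched for letters of these boxes is printed because it does not depend on the measured values. The windows are RefSeq promoters of GRCm38.p6, from 250 bases before to 50 after each start, and 7 members had one. The windows were searched for GATTGG, the core of the Y box, and for GNAAC (N any base), letters of the X box, chosen after the sequences had been read. For the members the gene's own strand was searched, and for the shares of all windows both strands were. Capitals mark those letters, and each line runs 5′ to 3′ on the gene's own strand.
H2-Aa (minus strand, chr17:34287858-34287917): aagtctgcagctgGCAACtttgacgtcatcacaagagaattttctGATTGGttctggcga
H2-Eb1 (plus strand, chr17:34305762-34305821): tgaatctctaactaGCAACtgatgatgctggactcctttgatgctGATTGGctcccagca
H2-Oa (plus strand, chr17:34092290-34092349): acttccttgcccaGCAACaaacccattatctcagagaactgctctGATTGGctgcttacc
H2-Ob (plus strand, chr17:34238802-34238861): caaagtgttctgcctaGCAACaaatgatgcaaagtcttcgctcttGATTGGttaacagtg
H2-DMb1 (plus strand, chr17:34153084-34153143): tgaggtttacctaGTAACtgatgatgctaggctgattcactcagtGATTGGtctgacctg
H2-DMb2 (plus strand, chr17:34145113-34145172): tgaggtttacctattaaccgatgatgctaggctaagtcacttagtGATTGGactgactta
H2-DMa (plus strand, chr17:34125274-34125333): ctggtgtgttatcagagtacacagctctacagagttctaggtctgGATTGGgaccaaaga

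GATTGG occurred on the own strand in a window of all 7 of these members, and on either strand in 16.1% of the 32851 windows of the table. GNAAC alone is common, in 84.8% of windows. GNAAC starting 20 to 45 bases before GATTGG was found in 5 members, H2-Aa, H2-Eb1, H2-Oa, H2-Ob and H2-DMb1, and on either strand in 1.45% of all windows. The wider search of all windows makes these shares higher than the same search would. In those 5 the first letters of the motifs lay 29 to 32 bases apart. H2-DMb2 had GATTGG without GNAAC at that distance. H2-DMa had GATTGG in 1 of its 2 windows, far upstream at -199 from the start, whereas the other 6 had it between -91 and -44. These matches describe letters only.

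The libraries held 717506 to 1801504 counts in genes (median 1411038) and 10331 to 11115 genes with a count. Pdcd1, the gene that carries the allele, spanned 166 to 523 CPM (counts scaled to a common library size, with TMM) across the WT libraries and 21.5 to 130 CPM across the KI libraries. The labels and this gene's level thus went together in all 12 libraries, although it did not pass by genotype (edgeR adjusted p = 0.231). Pdcd1 and Cxcr5 were lower at first title number 2, with log2 fold changes of -1.56 and -0.72 (edgeR adjusted p = 8.4e-05 and 0.0021). Icos and Cd28 were higher there, at 0.76 and 0.50 (edgeR adjusted p = 0.0158 and 0.0237). Of 10 T cell genes tested, 2 were thus called lower and 2 higher, beside 16.0% of all tested genes called in either direction. Several T cell genes of the sort were abundant, with Cd3g at 1070 to 1667 CPM, Lck at 1300 to 1805 CPM and Cxcr5 at 340 to 801 CPM. Others of the same list were not, with Cd3e at 38.3 to 77.8 CPM and Cd5 at 36.6 to 106 CPM. WT 1-3, the library of WT with title numbers 1 and 3, stood apart, with the largest share of multiply aligned reads (43.8%; the lowest library had 26.7%) and myeloid transcripts described further on.

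Compared per transcript length, the class II genes ran over a wide range of levels. The peptide exchange subunit H2-DMa had the highest median FPKM of the 10, at 83.3 (32.5 to 125). H2-Ab1 followed at 42.3 (14.2 to 82.5) and its partner chain H2-Aa at 27.6 (8.49 to 52.7). Cd74, H2-Ob and H2-Eb1 had medians of 11.5, 10.2 and 10.2 FPKM. Each was above the next gene in the order in only 7, 6 and 7 of 12 libraries, with H2-Oa after H2-Eb1, so the order from Cd74 to H2-Oa does not go beyond the spread between libraries. H2-Oa had a median of 7.48 FPKM and was above H2-DMb1 in 12 of 12 libraries. H2-DMb1 and H2-DMb2 were low, with medians of 2.12 and 1.91 FPKM, and H2-DMb1 was above H2-DMb2 in 3 of 12 libraries. Higher up, H2-DMa was above H2-Ab1 in 10 of 12 libraries, H2-Ab1 above H2-Aa in 8 and H2-Aa above Cd74 in 11.

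**Figure D1:**
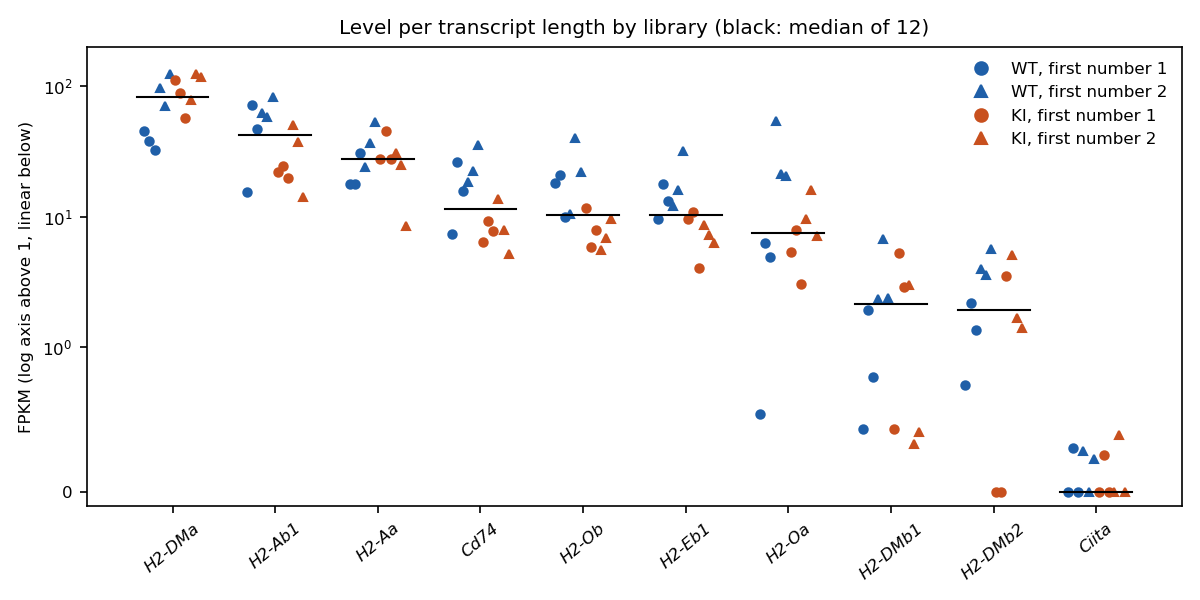
FPKM of each member in the 12 libraries, on an axis that is logarithmic above 1 and linear below, with genes ordered by median (black line); colour gives the genotype and symbol shape the first title number. H2-DMa (median 83.3) and H2-Ab1 (median 42.3) sit at the top and Ciita at or near 0.

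Ciita itself was close to the limit of detection. It had between 0 and 7 counts per library and no count in 6 of the 12. A count of 0 allows up to 3 counts, or 1.69 to 5.37 CPM across those 6 libraries, so its absence cannot be claimed at this depth (counting error only). The mean was 1.17 ± 1.38 CPM in the WT libraries and 1.19 ± 1.47 CPM in the KI libraries (SD, n = 6 per genotype), which do not differ beyond their spread.

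H2-DMb1 had 1 to 19 counts per library and H2-DMb2 had 0 to 10. Their longest annotated transcripts are 95.98% identical over 1045 aligned bases, with identical runs of up to 221 bases, so reads could be lost as multiply aligned or shared between the pair, and the values of each are uncertain. WT libraries averaged 4.04 ± 3.49 CPM of H2-DMb1 and KI libraries 3.69 ± 3.68 CPM (SD, n = 6 per genotype). For H2-DMb2 these means were 4.06 ± 2.24 and 2.63 ± 2.53 CPM. H2-DMa, which supplies the partner chain of both, reached 43.0 to 120 CPM in the same libraries. These 3 low genes did not pass the filter on low counts. The other 7 members did and were among the 7542 genes tested.

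The classical chains and the invariant chain had lower mean levels in KI, with H2-Aa the closest between genotypes (40.3 CPM in KI, 43.9 CPM in WT). H2-Ab1 ran from 23.0 to 124 CPM in WT (median 95.6) and from 22.2 to 97.2 CPM in KI (median 36.3). Of the 6 WT libraries, 3 were above every KI library, and WT 1-1, at 23.0 CPM, was down among the lowest KI libraries. Cd74 ran from 11.2 to 54.3 CPM in WT (median 33.9) and from 8.31 to 27.4 CPM in KI (median 11.8), with 5 of 6 WT libraries above every KI library.

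H2-Eb1 ran from 20.2 to 67.2 CPM in WT (median 36.6) and from 9.62 to 25.4 CPM in KI (median 16.3). Again 5 of 6 WT libraries were above every KI library, and WT 1-1 was the exception. H2-Aa differed from these, at 25.1 to 73.2 CPM in WT (median 40.5) and 11.8 to 69.4 CPM in KI (median 36.4), with ranges that overlap almost fully. The exon bases of H2-Aa and H2-Ab1 overlap by 17 on opposite strands in the mm9 annotation, and whether counting used strand is not given in the sources used here.

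The 2 genes of H2-O differed in their pattern over libraries. H2-Ob ran from 36.4 to 141 CPM in WT (median 68.8) and from 21.9 to 36.8 CPM in KI (median 26.9). KI values were close together and 5 of 6 lay below every WT library, while WT values were widely spread. H2-Oa ran from 0.70 to 70.3 CPM in WT (median 17.9) and from 4.12 to 19.0 CPM in KI (median 11.7), and its KI range lay inside its WT range.

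H2-DMa was the only tested member with a higher mean in KI. It ran from 43.0 to 118 CPM in WT (median 55.7) and from 57.0 to 120 CPM in KI (median 102), and the groups overlapped.

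**Figure D2:**
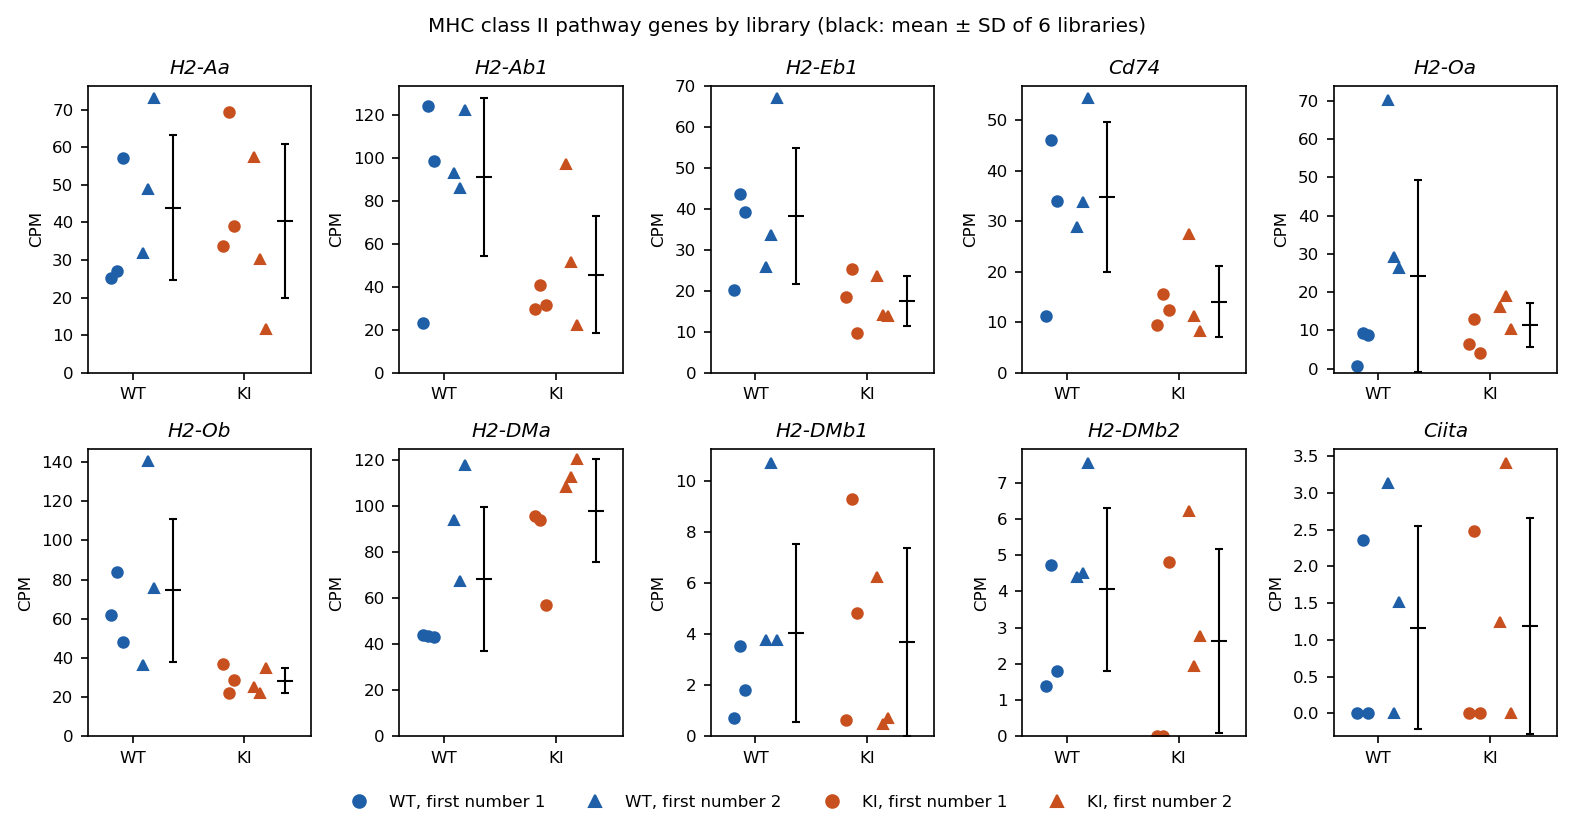
CPM of each member by genotype, each symbol 1 library (circles, first title number 1; triangles, first title number 2), with the mean ± SD of 6 libraries in black; each panel has its own axis. H2-Ab1, H2-Eb1, Cd74 and H2-Ob have higher WT means (91.1, 38.3, 34.7 and 74.4 CPM) than KI means (45.6, 17.5, 14.1 and 28.2 CPM), with WT 1-1 among the KI libraries for H2-Ab1 and Cd74.

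The comparison of KI with WT asks what the knock-in allele changes in these cells. Because the members were proposed with this contrast known, its values are given as a description. No member passed edgeR's adjusted p of 0.05, which 2 of 7542 genes did (0.0265%). At an unadjusted p under 0.05 there were 4 of the 7 tested members and 407 of all tested genes (5.40%), and DESeq2 called 1 member, H2-Ob, among 11 genes. The log2 fold changes, KI over WT, were -1.40 (SE 0.33) for H2-Ob, -1.32 (SE 0.44) for Cd74, -1.13 (SE 0.39) for H2-Eb1, -1.01 (SE 0.39) for H2-Ab1 and -1.09 (SE 0.67) for H2-Oa. Without WT 2-1 the value of H2-Oa was -0.40, with a block by first title number -0.65, and with limma on log2(FPKM + 1) and log2(FPKM + 0.1) it was -0.40 and -0.28. H2-Aa, at -0.13 (SE 0.40), and H2-DMa, at 0.51 (SE 0.29), had estimates within 2 SE of 0, as had H2-Oa.

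Over all 10 members, 9 had a lower mean log2(CPM + 1) in KI, with a median difference of -0.56. The 9 include the members below the filter, H2-DMb2 (-0.73), H2-DMb1 (-0.28) and Ciita (-0.0028), whose few counts give little hold on a direction. Of all 14480 entries with a count, 52.3% were lower, with a median of -0.03. In bulk RNA, fewer cells of a type that express these genes and less RNA per cell cannot be told apart.

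Within each first title number the direction was the same for H2-Ab1, H2-Eb1, Cd74, H2-Ob and H2-DMa. The KI minus WT differences in mean log2 CPM at numbers 1 and 2 were -0.93 and -1.01 for H2-Ab1, -0.92 and -1.15 for H2-Eb1, and -1.01 and -1.35 for Cd74. H2-Ob gave -1.10 and -1.41, and H2-DMa gave 0.86 and 0.32. H2-Aa (0.39 and -0.78) and H2-Oa (0.46 and -1.28) had opposite signs at the 2 numbers. No member passed the interaction test of genotype with first title number in edgeR, at an adjusted or an unadjusted p of 0.05, and 0 of all 7542 genes passed it at an adjusted p (544 at an unadjusted p).

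The first title number went with many more called genes than the genotype did, 1208 of 7542 (16.0%). Of the 7 tested members 2 passed, H2-Oa and H2-DMa, both higher at number 2, too few genes to set apart from that background. H2-Oa was at 0.70, 9.44 and 8.95 CPM in WT and 6.35, 13.0 and 4.12 CPM in KI at number 1. At number 2 it was at 70.3, 29.2 and 26.4 CPM in WT and 16.2, 19.0 and 10.4 CPM in KI. Of the libraries at number 2, 5 of 6 were above every library at number 1. The log2 fold change was 1.83 (SE 0.58; edgeR adjusted p = 0.0342), with means of 28.6 ± 21.5 CPM at number 2 and 7.10 ± 4.34 CPM at number 1 (SD, n = 6 each).

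H2-Oa passed the filter through number 2, where 6 of 6 libraries had at least 10 counts, against 2 of 6 at number 1. Its call was lost, with adjusted p-values up to 0.104, on leaving out any of 7 libraries: WT 1-1, WT 1-2, WT 1-3, WT 2-1, WT 2-3, KI 1-3 or KI 2-2.

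H2-DMa was at 44.0, 43.6 and 43.0 CPM in WT and 95.9, 94.2 and 57.0 CPM in KI at number 1. At number 2 it was at 94.1, 67.5 and 118 CPM in WT and 108, 113 and 120 CPM in KI, so the WT libraries of number 1 were the low ones. The log2 fold change was 0.77 (SE 0.23; edgeR adjusted p = 0.0258), with means of 103 ± 19.9 CPM at number 2 and 63.0 ± 25.4 CPM at number 1 (SD, n = 6 each). The call was lost without WT 1-1, WT 1-2, WT 2-3 or KI 1-3, without a filter on low counts and without the genotype term, with adjusted p-values up to 0.0720.

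The remaining tested members did not pass by first title number, with log2 fold changes of 0.51 (SE 0.35) for H2-Ab1, 0.33 (SE 0.42) for Cd74, 0.14 (SE 0.31) for H2-Ob, 0.12 (SE 0.39) for H2-Eb1 and -0.02 (SE 0.39) for H2-Aa. Among the members below the filter, a two-sided exact permutation test of log2(CPM + 1), with 6 libraries per number, gave p = 0.0671 for H2-DMb2 (difference 1.09), p = 0.405 for Ciita and p = 0.755 for H2-DMb1. Over all 10 members, those below the filter included, 9 were higher at number 2, with a median difference of 0.43, beside 51.7% of all entries and a median of 0.04.

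Whether the members vary together between libraries was examined with correlations of log2 CPM over the 12 libraries for the 21 pairs of tested members. The trio of H2-Ab1, H2-Eb1 and Cd74 varied together, and the pairs of the other members with them did not pass. H2-Ab1 and Cd74 had r = 0.95 and rho = 0.94 (permutation p = 7.0e-05 and 2.0e-05, adjusted over the 21 pairs to 0.00084 and 0.00042). H2-Eb1 and Cd74 had r = 0.89 and rho = 0.90 (permutation p = 8.0e-05 and 0.00020, adjusted 0.00084 and 0.0021). H2-Ab1 and H2-Eb1 had r = 0.78 and rho = 0.83 (permutation p = 0.0023 and 0.00115, adjusted 0.0161 and 0.00805).

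No other pair passed an adjusted p of 0.05. Over the 21 pairs r ran from -0.45 to 0.95 with a median of 0.51, and 17 were above 0. The median over all 28437111 pairs of tested genes was -0.0025, and 0.00522% of those pairs had an r at least as high as that of H2-Ab1 with Cd74. Without the 2 libraries farthest from the median of the first gene of the pair, r was 0.94 for H2-Ab1 with Cd74, 0.91 for H2-Eb1 with Cd74 and 0.81 for H2-Ab1 with H2-Eb1.

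The same 3 pairs were also positive within each first title number. H2-Ab1 with Cd74 had r = 0.98 at number 1 and 0.93 at number 2 (exact permutation p = 0.00417 and 0.00833, n = 6). H2-Eb1 with Cd74 had 0.83 and 0.94 (exact permutation p = 0.0458 and 0.00139, n = 6). H2-Ab1 with H2-Eb1 had 0.82 and 0.79 (exact permutation p = 0.0472 and 0.0833, n = 6). The permutations mixed the genotypes, so these p-values and those over 12 libraries also take in the difference between genotypes. After the mean of each genotype at each number was taken off, the 3 pairs had r of 0.95, 0.77 and 0.68, which were not tested.

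In Cd74 the 12 libraries fell into 2 sets with no value between 15.5 and 27.4 CPM, and the same sets were split in H2-Ab1 between 51.6 and 86.1 CPM. The lower set held 5 KI libraries and WT 1-1, and the higher set held 5 WT libraries and KI 2-1. Within the lower set r was 0.57 for H2-Ab1 with Cd74, 0.34 for H2-Eb1 with Cd74 and 0.05 for H2-Ab1 with H2-Eb1 (exact permutation p = 0.249, 0.528 and 0.917, n = 6). Within the higher set these were 0.84, 0.96 and 0.74 (exact permutation p = 0.0528, 0.00139 and 0.0875, n = 6). The sets were cut on Cd74 itself, which narrows its range and can lower any r within them. These values therefore cannot decide whether the relation holds within a set. Within WT r was 0.97 for H2-Ab1 with Cd74, 0.90 for H2-Eb1 with Cd74 and 0.78 for H2-Ab1 with H2-Eb1. Within KI these were 0.90, 0.57 and 0.52. In the lower set each value rests on few counts (12 to 25 for Cd74). In the higher set WT 1-3 and KI 2-1 rest on as few (19 and 22 for Cd74). Libraries of the lower set had at least 1400830 counts in genes, and those of the higher set 717506 (WT 1-3) to 1683536 (WT 2-2). What part depth has in this split was not tested. The sets were defined after the data were seen and are not groups of the study.

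The r of H2-Aa with the trio was higher at number 2 than at number 1. With H2-Ab1 it had r = 0.16 at number 1 (exact permutation p = 0.764, n = 6) and 0.94 at number 2 (exact permutation p = 0.00556, n = 6). With Cd74 it had 0.08 and 0.89 (exact permutation p = 0.874 and 0.0111, n = 6), and with H2-Eb1 it had 0.11 and 0.80 (exact permutation p = 0.818 and 0.0639, n = 6). The difference between the numbers was not tested. Over all 12 libraries its r with H2-Ab1, its partner chain in I-A, was 0.55, and it was 0.23 without the 2 libraries of most extreme H2-Aa. With group means taken off, its r was 0.69 with H2-Ab1, 0.65 with H2-Eb1 and 0.71 with Cd74. Within the lower and higher sets of Cd74, its r with Cd74 was 0.90 and 0.13 (exact permutation p = 0.0319 and 0.814, n = 6).

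H2-Oa, a chain of H2-O, had r of 0.64 with H2-Ab1, 0.51 with Cd74 and 0.37 with H2-Eb1 (adjusted permutation p = 0.120, 0.177 and 0.356). With group means taken off these were 0.71, 0.55 and 0.41.

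H2-Ob, a subunit of the H2-DM inhibitor, had r of 0.57 with Cd74 and 0.63 with H2-Eb1 (adjusted permutation p = 0.156 and 0.120). With group means taken off these were -0.0047 and 0.10. Within WT they were 0.24 and 0.29, and within KI -0.57 and -0.31. What part the difference between groups has in the r over 12 libraries was not tested. H2-Ob and H2-Oa, the 2 chains of H2-O, had r = 0.05 over 12 libraries. H2-DMa had r of -0.07 with H2-Ab1, -0.14 with H2-Eb1 and -0.20 with Cd74. With group means taken off these were 0.03, 0.57 and 0.05. Its highest r was 0.54, with H2-Oa (adjusted permutation p = 0.156), the gene that also differed by first title number, and that value was 0.18 with group means taken off.

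**Figure D3:**
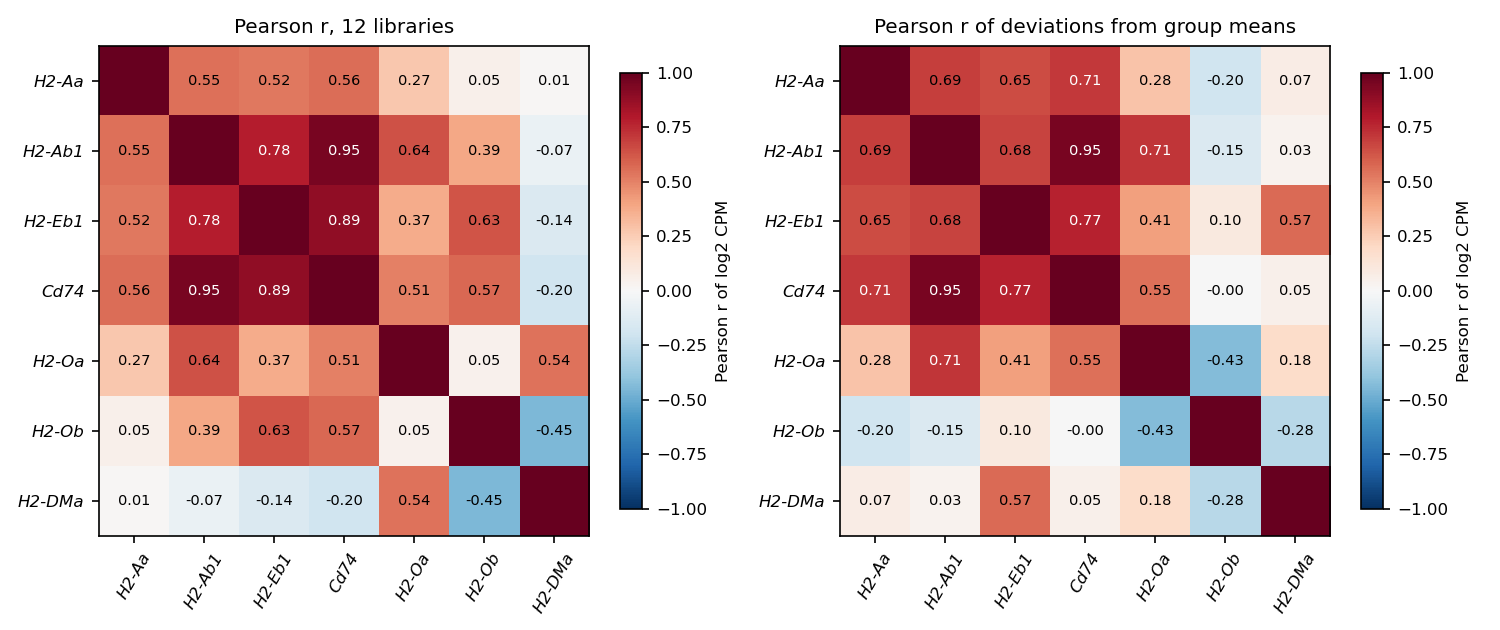
Pearson r between the 7 tested members over 12 libraries (left) and after the mean of each genotype at each first title number was taken off (right), with red positive and blue negative. H2-Ab1, H2-Eb1 and Cd74 form the darkest block on the left (0.78 to 0.95). On the right they are at 0.68 to 0.95, H2-Aa reaches 0.65 to 0.71 with the 3 and H2-Oa 0.71 with H2-Ab1, while H2-Ob is pale or blue.

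**Figure D4:**
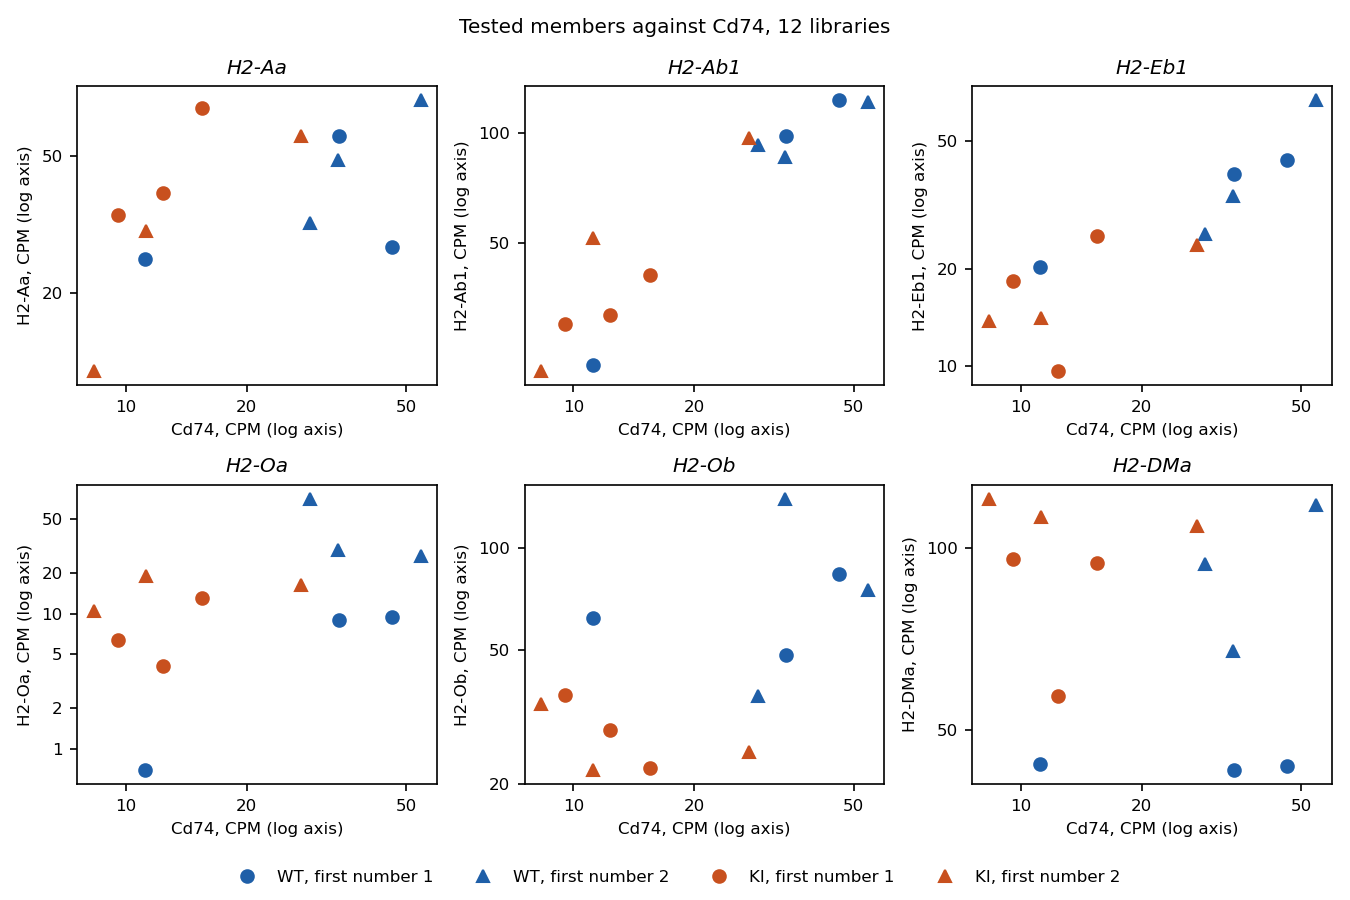
CPM of the 6 other tested members against Cd74 in each library, on logarithmic axes. H2-Ab1 and H2-Eb1 climb with Cd74, KI 2-1 (orange triangle at 27.4 CPM of Cd74) lies with the WT libraries and WT 1-1 (blue circle at 11.2 CPM) with the KI libraries, and H2-DMa shows no such slope.

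Markers of other cells that the sort could hold were read beside the members. Of 21 B cell genes listed, 18 were in the table and 17 had a count, with Pax5 at 0 in all 12 libraries and Ebf1 with a count in 1 library. Their summed level was 260 to 521 CPM in WT and 173 to 401 CPM in KI, and 8 of them were tested, with 0 called in either comparison. Cd22 and Pou2af1 made up 41.6% to 85.0% of that sum, and both were high also where the class II genes were low. Cd22, an inhibitory lectin of B cells, had r = -0.22 with Cd74, and Fcrl1, another tested gene of the list, had r = -0.0033. By log2 fold change, 6 of the 8 tested genes were lower in KI and 2 were higher. The higher ones were Cd22 (means of 147 CPM in KI and 99.1 CPM in WT) and Fcrl1 (25.9 and 18.6 CPM).

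Single genes of the list were examined after the sums had been seen. Ms4a1, which encodes CD20, spanned 12.6 to 58.9 CPM over the WT libraries and 2.75 to 14.6 CPM over the KI libraries. Its r was 0.84 with Cd74, 0.85 with H2-Eb1 and 0.81 with H2-Ab1 (permutation p adjusted over 56 relations of single B cell genes = 0.0294, 0.0294 and 0.0463). Its rho was 0.80, 0.85 and 0.73 (adjusted permutation p = 0.0279, 0.0267 and 0.0657), so the relation with H2-Ab1 did not pass by rank. Within the lower and higher sets of Cd74, its r with Cd74 was 0.16 and 0.71. Within WT its r with Cd74, H2-Eb1 and H2-Ab1 was 0.85, 0.87 and 0.80, and within KI 0.46, 0.42 and 0.70.

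Cd79a, a signalling chain of the B cell receptor, averaged 10.6 ± 9.84 CPM over KI libraries, against 25.9 ± 9.12 CPM over WT libraries (SD, n = 6 per genotype). Its partner Cd79b averaged 18.3 ± 11.6 CPM over KI and 46.7 ± 17.1 CPM over WT libraries. With Cd74, H2-Ab1 and H2-Eb1, r was 0.78, 0.74 and 0.70 for Cd79a and 0.70, 0.67 and 0.48 for Cd79b, none of which passed over the 56 relations. By rank the relations of Cd79a did pass, with rho of 0.83, 0.85 and 0.82 (adjusted permutation p = 0.0267, 0.0267 and 0.0279). Those of Cd79b did not (rho of 0.67, 0.67 and 0.62). Within WT alone, r of Cd79a with the same genes was only 0.23, 0.20 and 0.36, and within KI it was 0.97, 0.97 and 0.49. For Cd79b r was 0.31, 0.36 and 0.17 within WT and 0.54, 0.61 and -0.26 within KI. Within the lower and higher sets of Cd74, r of Cd79a with Cd74 was 0.55 and 0.33. The KI library that was highest in H2-Ab1 and Cd74 by CPM, KI 2-1, was also the KI library highest in Cd79a (29.9 CPM) and in Cd79b (36.2 CPM). WT 1-1 was an exception, with Cd79a at 23.7 CPM and Cd74 at 11.2 CPM. KI 2-1 had the fewest counts in genes of the KI libraries (936912) and 34.3% multiply aligned reads. Before scaling it had 78 counts of H2-Ab1, 22 of Cd74 and 29 of Cd79b, against 106, 23 and 48 in KI 2-2. The summed B cell list itself had r of 0.69 with Cd74, 0.68 with H2-Ab1 and 0.49 with H2-Eb1, none of which passed (adjusted permutation p = 0.0892, 0.0892 and 0.437, over 35 relations of members with marker lists). The part of B cell transcripts in the class II values was not tested.

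**Figure D5:**
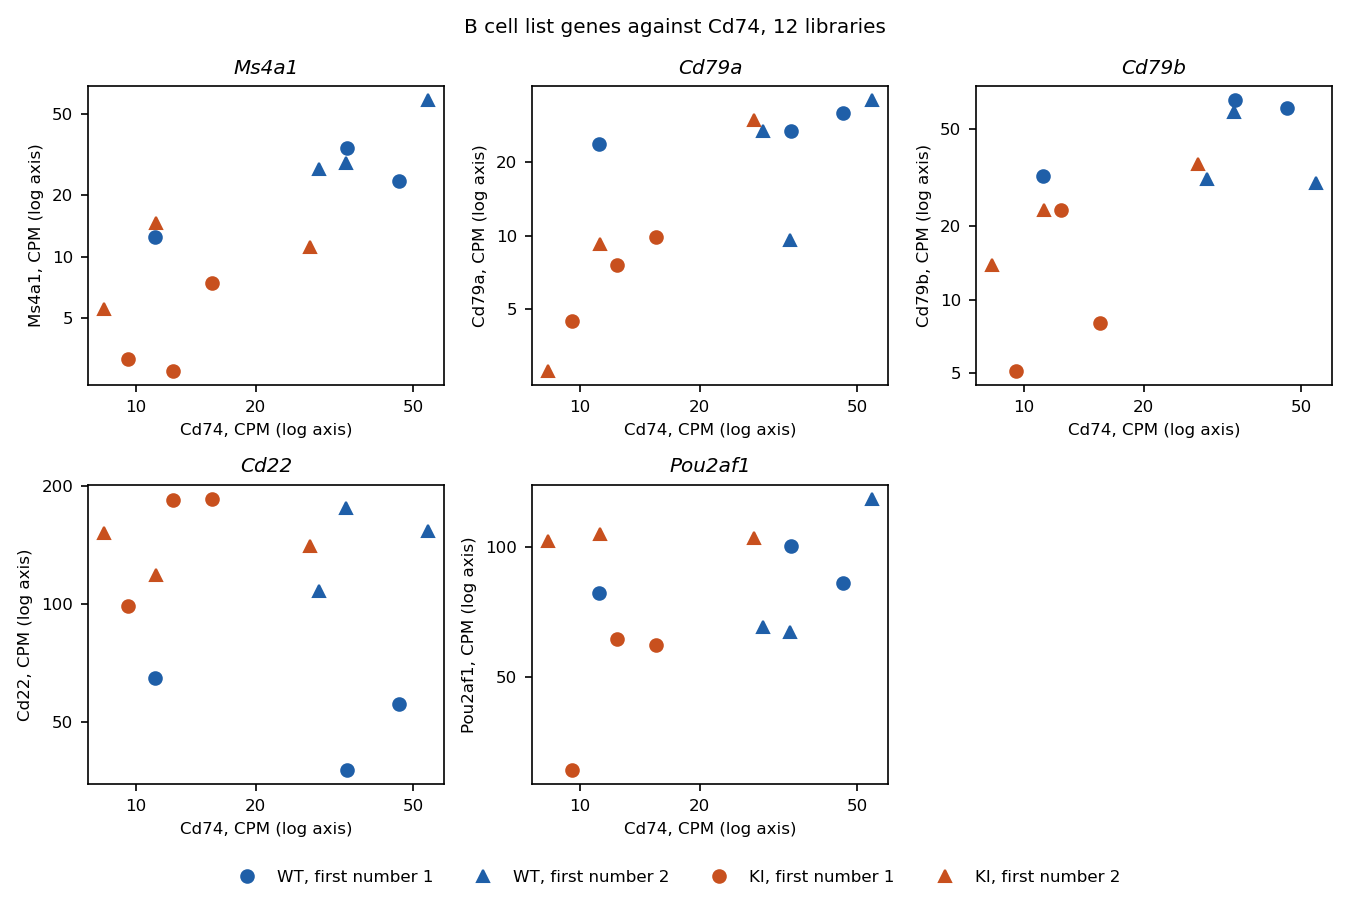
CPM of 5 genes of the B cell list against Cd74 in each library, on logarithmic axes. Ms4a1 and Cd79a climb with Cd74 in most libraries, while Cd22 (r = -0.22) and Pou2af1 (r = 0.38) are abundant throughout.

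Of 20 dendritic and myeloid genes, 14 had a count, and Itgax, Zbtb46, Clec9a, Cd209a and S100a8 were among those at 0 in all 12 libraries. Their summed level was 48.4 to 297 CPM in WT and 51.5 to 122 CPM in KI. The only tested gene among them, Cst3, ran from 30.2 to 96.3 CPM. The highest sum belonged to WT 1-3, with Lyz2 at 100.2 CPM and Csf1r at 111 CPM. In that library Cd74 was at 34.0 CPM and H2-Ab1 at 98.4 CPM, inside the range of the other WT libraries, and r of H2-Ab1 with Cd74 was 0.94 to 0.97 on leaving out any single library, this library included. The summed myeloid level had r of -0.06 with Cd74 and -0.03 with H2-Ab1, which became -0.39 and -0.35 without WT 1-3. With Cd74 it had r = 0.23 at number 1 and -0.94 at number 2 (exact permutation p = 0.736 and 0.00417, n = 6), and with H2-Ab1 0.19 and -0.89 (exact permutation p = 0.792 and 0.00972, n = 6). The part of myeloid transcripts in the class II values was not tested.

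Of 9 cytotoxic T and NK cell genes, 8 had a count and Ncr1 was at 0. The 3 tested genes, Nkg7, Klrb1c and Cd8b1, were all called higher at first title number 2, beside 16.0% of all tested genes called in either direction. Their log2 fold changes were 2.09, 1.78 and 1.57 (edgeR adjusted p = 4.1e-05, 0.0226 and 0.0332). The list's sum was 48.4 to 195 CPM at number 1 and 219 to 482 CPM at number 2. Its relation with H2-Oa had r = 0.71 (adjusted permutation p = 0.0892) and rho = 0.85 (adjusted permutation p = 0.0290). Within number 1 r was -0.02 and within number 2 it was 0.73 (exact permutation p = 0.961 and 0.147, n = 6). Of 8 stromal genes, 4 had a count and Ccl21a, Ccl19, Col1a2 and Col3a1 were at 0, and the sum was 25.1 to 77.6 CPM. What part these transcripts have in H2-Oa was not tested.

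No gene of the other pathway lists was called between KI and WT, where 0.0265% of all tested genes were. Of 8 transcription factor genes that act on class II promoters, 7 were tested and 2 were higher at first title number 2, beside 16.0% of all tested genes called in either direction. Rfx5, a subunit of the X box factor RFX, averaged 21.1 ± 9.77 CPM at number 2 and 4.76 ± 3.30 CPM at number 1 (SD, n = 6 per number). Its log2 fold change was 2.24 (SE 0.66; edgeR adjusted p = 0.0232). It ran from 0 to 9.44 CPM at number 1 and from 4.87 to 34.9 CPM at number 2, so the fold change rests on values near 0 at number 1. Creb1 averaged 70.9 ± 19.9 and 27.7 ± 12.7 CPM, with a log2 fold change of 1.41 (SE 0.36; edgeR adjusted p = 0.00971). Their r with Cd74 was 0.52 and 0.22.

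Of 8 genes of the proteases and the reductase that prepare antigen and trim the invariant chain, 7 were tested and none passed by number. The most abundant was Ctsb, at 542 to 1004 CPM, followed by Ctss, at 338 to 479 CPM, the cathepsin known for the last cut of the invariant chain. Ctss had r = -0.75 with Cd74. Ctsh, below the filter and picked out after its values were seen, averaged 1.53 ± 1.93 CPM over KI and 13.5 ± 12.6 CPM over WT libraries (SD, n = 6 per genotype) and had r = 0.86 with Cd74.

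Of 7 genes that act upstream of Ciita, 6 were tested. At first title number 2, 2 were called higher and 1 lower, beside 16.0% of all tested genes called in either direction. Jak1 and Jak2, kinases of the interferon gamma receptor, were higher at number 2, with log2 fold changes of 0.75 (SE 0.13; edgeR adjusted p = 0.000747) and 1.05 (SE 0.24; edgeR adjusted p = 0.00434). Usf1 was lower at number 2, at -1.69 (SE 0.44; edgeR adjusted p = 0.0109). Irf1, at 82.3 to 189 CPM, did not pass. The costimulatory ligands of antigen-presenting cells, Cd80, Cd86 and Cd40, were all below the filter, with a summed level of 0 to 16.9 CPM. Cd83, which opposes the removal of class II from the surface, reached at most 73.1 CPM and did not pass. Of the other class II genes H2-Eb2 had a count in 2 of 12 libraries.

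Finally, the genes outside the pathway whose levels were most like the mean log2 CPM of H2-Aa, H2-Ab1, H2-Eb1 and Cd74, among 7535 tested genes, were Vhl (r = 0.90), Tmbim4 (0.86), Zfp275 (0.83), Ms4a1 (0.82) and Cep97 (0.81) over the 12 libraries. Cd79a ranked 15. For H2-Ob they were Ccdc117 (0.83), Pde2a (0.82), Atxn7 (0.79), Eif2ak4 (0.79) and Ttpal (0.79), and Ms4a1 ranked 104. These ranks are given as a description, since the highest of 7535 correlations over 12 libraries are high by selection, and the libraries share depth, scaling and the difference between groups.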

How the data were processed

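RNA-seq was made from 12 libraries of sorted CXCR5hi OT-II T cells. CASAVA, TopHat2, Cufflinks, HTSeq and DESeq2 and the build mm9 are named in the submitters' processing notes. The authors deposited a table of counts per gene and a table of FPKM values, and 5 summary entries of the count table were left out of library sizes. The FPKM of the 27 repeated names were summed.

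Counts were tested with edgeR 4.0.16 in R 4.3.3 (TMM, filterByExpr, quasi-likelihood test, Benjamini-Hochberg over 7542 genes, threshold 0.05), without a covariate for genotype and with genotype for the first title number. The test was checked on simulated counts. Correlations used log2 CPM with a prior count of 2 and two-sided permutation p-values (100000 resamples over 12 libraries, exact over 6; scipy 1.17.1). DESeq2 1.42.0, limma 3.58.1 on log2(FPKM + 1) and log2(FPKM + 0.1), other scalings and filters, replicate blocks and leaving out each library were alternatives.

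Some genes of the lists are not reported here. The members, lists and tests were chosen with earlier results of these data known. Beside the 10 members, genes were named by fixed rules: from each list up to the 4 of highest mean CPM and any called gene, and the 5 most like the members; others are named as picked later or as defining markers. March1, March8, H2-Ea, H2-Ea-ps, Ighm, Ighd and Igkc were not matched by these names. Adgre1 and Sppl2a were matched by older names. Promoters came from the RefSeq table of GRCm38.p6. Replicates differed beyond counting noise, with chi-square per degree of freedom of 8.58 to 37.0 over 30 pairs of libraries.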

Additional observations from a re-analysis of the deposited data

Results flagged for a closer look

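In a check of 20 groups of 6 libraries (10 members in WT and in KI), 2 had a library far from the rest, by the gap to its neighbour as a share of the group's range; chance gives about 1 in 20. H2-Ab1 in WT had its lowest library, WT 1-1, at 23.0 CPM, with the nearest at 86.1 CPM, a gap of 0.625 of the range. That library was also the lowest WT library in Cd74 (11.2 CPM), H2-Eb1 (20.2 CPM), H2-Aa (25.1 CPM), H2-Oa (0.70 CPM, 1 count), H2-DMb1 (0.70 CPM) and H2-DMb2 (1.40 CPM), and stood in the middle of the WT libraries in H2-Ob (62.1 CPM). H2-DMb1 in WT had its highest library, WT 2-2, at 10.7 CPM, with the next at 3.77 CPM, a gap of 0.692 of the range, resting on 19 counts against 5.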

How the results depend on the processing

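For KI against WT, 2 genes passed in the reported fit, 11 with DESeq2 (5 higher, 6 lower), 4 without a filter on low counts, 0 with limma on either log2(FPKM) scale and 0 to 2 on leaving out each library. For the first title number the count of 1208 became 782 with limma on log2(FPKM + 0.1) and 751 to 1252 on leaving out each library, with 751 without KI 2-2. Libraries that share both title numbers deviated together with r of 0.083 to 0.258 (6 pairs, mean 0.164), so the numbers were not taken to pair libraries. Pairs of unlike genotype that share the first number had a mean r of 0.166 and those that do not -0.165, so the deviations followed the first number, which the fit of KI against WT leaves out. A replicate block by first title number gave 4 genes for KI against WT and a block by both numbers gave 3. The median r of the 21 pairs, 0.51, was 0.28 for deviations from group means (replicate block) and 0.37 to 0.51 on leaving out each library. It was 0.89 for H2-Ab1, H2-Eb1 and Cd74 alone, a set chosen after seeing the data. By first title number, members near 0 changed sign: H2-Aa (-0.02) was at 0.035 with a mean of at least 50 counts, at 0.0059 without the genotype term and at -0.22 to 0.23 on leaving out each library, above 0 without WT 1-3, WT 2-1, KI 1-2, KI 2-2 or KI 2-3. On leaving out each library H2-Eb1 was at -0.13 to 0.29, below 0 without WT 1-1 or WT 2-3, and H2-Ob was at -0.16 to 0.29, below 0 without WT 2-2. The cause of these shifts was not tested. The log2 fold changes of H2-Ab1, H2-Eb1, Cd74, H2-Oa and H2-Ob, KI over WT, stayed below 0 in all 20 or 21 alternatives run for each (H2-Oa at -1.35 to -0.28), and H2-Ob passed in 1 of them, DESeq2, at -1.42 (adjusted p = 0.0370; 0.0370 to 0.986 over the 21). Low counts limit Ciita, H2-DMb1 and H2-DMb2.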
